A study of Mus musculus with 24 samples.

Results

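Soleus (SOL) is a slow-twitch hindlimb muscle, and the results below are those of OSKM induction in it after the longest exposure studied, 8.5 days of Dox. They rest on 4 of the 24 libraries of the series, chosen by tissue and duration of Dox in the labels: 2 from Cre+ mice and 2 from Cre- mice. Cre+ stands for Acta1-Cre+/4Fhet and Cre- for Acta1-Cre-/4Fhet. Both genotypes therefore carried the same inducible 4F cassette, were 2 months old, ate regular chow and drank water with Dox at 1 mg/ml, and only the Cre transgene separated them. In the study's mouse the rtTA activator stood behind a LoxP-flanked stop in the Rosa26 locus and the tetO-4F cassette lay in Col1a1, so the Acta1 promoter, active in skeletal muscle fibres, restricted the factors to myofibers, while RNA was taken from the whole muscle. The comparison asks what 8.5 days of the factors did to the transcripts of a slow muscle. EDL, a fast-twitch muscle of the same design, and SOL at 2.5 days are used only where they show how the response at 8.5 days differs.

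OSKM names the transcription factors Oct4 (gene Pou5f1), Sox2, Klf4 and Myc, which together can carry a differentiated cell toward pluripotency. Given briefly, they change gene expression without erasing the identity of the cell, which is called partial reprogramming. Soleus fibres depend on oxidative metabolism and on slow isoforms of the contractile proteins, and in the mouse they lie beside fast oxidative fibres.

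The 4 libraries held 38315161 and 41580104 counts in Cre- mice and 52037509 and 49706119 in Cre+ mice. A reading of 0 counts in a library allows up to 3, a limit that covers counting error only. Where neither Cre- library held over 3 counts, folds are given against 3 counts per library. They are ratios to that fixed level and not bounds, since a reading above 0 allows more than 3. The study describes its replicates as biologically independent samples. Replicates differed by more than counting noise, with a mean chi-square per gene of 51.9 in Cre+ and 59.4 in Cre- muscles. The tissue label was borne out by Myh7, the slow myosin heavy chain, at 3196 and 3575 FPKM (counts scaled to exon length and library total) as the lowest and highest Cre+ SOL values, against 18.2 to 88.6 FPKM in Cre- EDL muscles of the same day. Myh4, the fastest myosin, read 106 to 326 FPKM in Cre+ SOL muscles and 3804 to 7905 FPKM in Cre- EDL muscles, and over the 6 Cre- SOL libraries of all days it spread from 21.1 to 521 FPKM. Xist was high and Y-linked Ddx3y at or near 0 in all 4 libraries, so the genotypes did not differ in this respect, whereas the 2.5-day SOL libraries had high Ddx3y. In bulk muscle, fewer cells of a type and less RNA per cell cannot be told apart.

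One feature of the controls had to be set aside before the response could be read. Alb, the serum albumin made by hepatocytes, stood at 6.40 and 43.8 FPKM in the Cre- SOL libraries (501 and 3719 counts) and at 0.423 and 0.482 FPKM in the Cre+ libraries (45 and 49 counts). The other 10 SOL libraries of the series held 17 to 122 Alb counts, so the Cre- libraries of this day stood apart and the Cre+ libraries did not. The list of 168 liver-type transcripts, which was set aside for being high in these libraries, is therefore only described. Of its 96 members tested 17 had at least 10 counts in every library, so most were tested on counts that only some groups held. Of the 96, 80 lay lower in both Cre+ libraries than in both Cre- libraries (as did 19.2% of all genes tested), 43 were called lower, and in 42 of those 43 Cre- replicate 2 exceeded replicate 1, by a median ratio of 4.36. Summed over the list, the level was 341 to 682 CPM (counts scaled to the library total) in Cre- and 196 to 212 in Cre+ SOL muscles, and the sum includes Vtn, which muscle itself held at 26.5 to 29.2 FPKM. Of the 167 members in the table, 48 to 56 were at 0 in a Cre+ library and 1 to 10 in a Cre- library. Mup3, Apoa2 and Apoc1, other abundant liver transcripts, had the same shape, for example Apoa2 at 4.92 and 22.5 FPKM in Cre- against 0.224 and 0.398 FPKM in Cre+ muscles. Alb was also raised in the Cre- EDL libraries of this day, at 180 and 312 counts against 41 and 31 in Cre+. The part that liver-type RNA played in other differences was not tested, except that the fit was repeated without these genes (below).

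**Figure D1:**
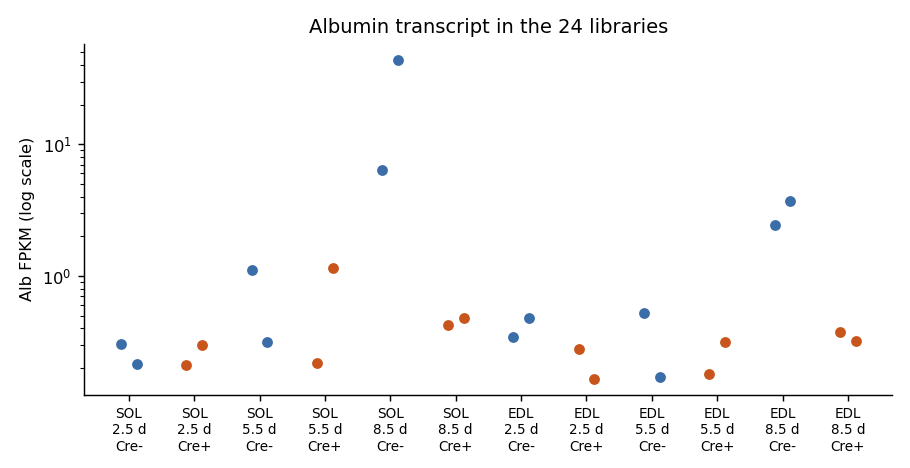
Alb FPKM on a log axis for each of the 24 libraries, by muscle, days of Dox and genotype, with 1 point per library (blue Cre-, orange Cre+). The 8.5-day Cre- SOL libraries, at 6.40 and 43.8 FPKM, are the highest, and the 8.5-day Cre+ SOL libraries, at 0.423 and 0.482 FPKM, lie among the others.

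DE genes passed edgeR's quasi-likelihood test at 0.05 after Benjamini-Hochberg adjustment, with an absolute log2 fold change over 0.5. Of 15372 genes tested, 51 were higher (0.332% of all tested) and 46 lower (0.299%) in Cre+ SOL muscles. Outside the liver list 50 genes were upregulated and 3 were lower. The 3 were Fabp1, Slc27a2 and Gm2083, which were recognised as liver transcripts (a liver fatty acid-binding protein, a liver fatty acid transporter and a major urinary protein gene) only after their values were seen. Their levels followed Alb, as Fabp1 did with 4.51 and 18.4 FPKM in Cre- against 0.277 and 0.373 FPKM in Cre+ muscles. No other gene passed as lower by edgeR, while 349 genes outside the liver list were lower at an unadjusted p under 0.05. DESeq2 on the same 16 libraries called 13 lower outside the list and DESeq2 on the 4 libraries called 35. At an unadjusted p under 0.05, 593 genes were higher (3.86%) and 422 lower (2.75%) in all. Over all genes tested the log2 fold change had a median of -0.0061.

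The count of 50 depended on which libraries entered the fit. A fit of the 4 libraries alone called 0 genes by edgeR (688 higher and 490 lower at an unadjusted p under 0.05), where DESeq2 on the same 4 libraries called 129 genes higher outside the liver list, 47 of the 50 among them. Without 1 library at a time the count was 28 (without Cre- replicate 1), 11 (without Cre- replicate 2), 12 (without Cre+ replicate 1) and 47 (without Cre+ replicate 2), and all 50 genes kept a positive log2 fold change each time. In each of those 4 fits 10 genes were called, given in order of fold change: Pou5f1, AA465934, Aldh1b1, AI450353, Serpinb1a, Carns1, S100a13, Hddc3, Serpinb6a and Cspg4. With the liver list taken out before the fit, 37 of the 50 passed.

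Of the reprogramming factors, Oct4 and Sox2 rose in Cre+ SOL muscles, Myc lay higher without passing the test and Klf4 did not separate the genotypes. Counts on these genes include both cassette and endogenous transcripts, which could not be split. Pou5f1 (chr17:35506032-35510777, mm10) had 1 and 0 counts in Cre- muscles against 857 and 414 in Cre+ muscles, or 12.2 and 6.19 FPKM. Against the level of 3 counts per library the Cre+ mean was 159-fold higher (adjusted p = 0.00165, edgeR). Sox2 (chr3:34649995-34652460) read 0.106 and 0.0391 FPKM in Cre- and 4.76 and 2.47 FPKM in Cre+ muscles, a log2 fold change of 5.59 ± 0.81 (SE, derived from the F statistic, as are all SEs here; adjusted p = 0.00828). In both genes the lower Cre+ library stood far above the higher Cre- library. Myc (chr15:61985341-61990361) read 2.73 and 2.53 FPKM in Cre- against 18.1 and 10 FPKM in Cre+ muscles. Both Cre+ libraries lay above both Cre- libraries, as for 19.8% of all genes tested. The log2 fold change was 2.37 ± 0.49, but the adjusted p was 0.0560 by edgeR. Myc was called by DESeq2, both with 16 libraries and with 4 (adjusted p = 1.08e-12 with 4), and over the 17 alternatives it gained a call in 5, with adjusted p up to 0.502. Klf4 (chr4:55527137-55532475) read 12.8 and 22.6 FPKM in Cre- and 22.7 and 12.6 FPKM in Cre+ muscles, so each genotype had a high and a low library and the log2 fold change was -0.04 ± 0.40 (adjusted p = 1.0).

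Within the Cre+ pair, replicate 1 held more of each factor than replicate 2. The same order ran through 45 of the 50 upregulated genes, by a median ratio of 1.40 in CPM, whereas replicate 1 was the higher in 52.2% of all genes tested, with a median ratio of 1.01. For scale, the Cre+ EDL muscles of this day held 76.2 and 57.7 FPKM of Pou5f1, 29.3 and 21.7 of Sox2 and 87.1 and 77.2 of Myc.

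**Figure D2:**
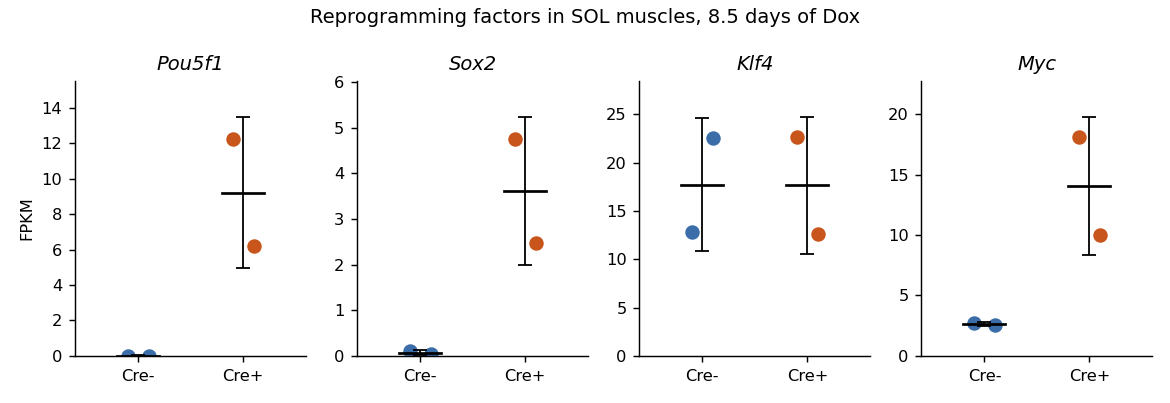
FPKM of Pou5f1, Sox2, Klf4 and Myc in SOL muscles at 8.5 days, with 1 point per library, the mean as a bar and the SD as error bars (n = 2 per genotype). Cre+ and Cre- points do not overlap for Pou5f1, Sox2 and Myc, and they overlap fully for Klf4.

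The 50 upregulated genes had log2 fold changes from 0.70 upward with a median of 1.87, and the highest among the 45 genes with over 3 counts in a Cre- library was 5.59 for Sox2. Of them, 41 exceeded a log2 fold change of 1 and 22 exceeded 2. All 50 had both Cre+ libraries above both Cre- libraries, as did 19.8% of all genes tested, and the test favours such genes. Their starting levels ran from unread to abundant: 28 had a mean of at least 1 FPKM in Cre- muscles, 9 were under 0.1 FPKM, and 5 had no more than 3 counts in either Cre- library. Of the 50, 5 were non-coding RNAs (10%, against 4.85% of genes tested). They are described below in groups by what each gene is known to do, a grouping made after the values were seen.

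**Figure D3:**
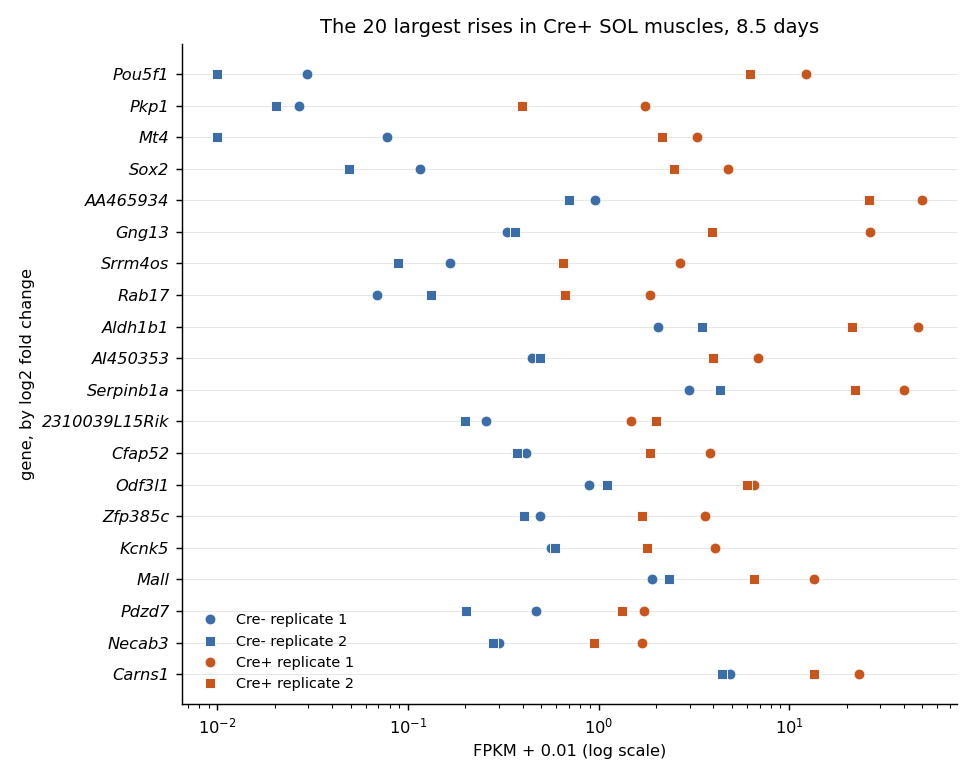
FPKM plus 0.01, on a log axis, of the 20 genes with the largest rises and at least 1 FPKM in Cre+ SOL muscles, ordered by log2 fold change, with 1 marker per library (blue Cre-, orange Cre+, circles replicate 1, squares replicate 2). For every gene both orange markers lie to the right of both blue markers, and circles lie to the right of squares among the orange markers of all genes but 2310039L15Rik.

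Several of the rises belonged to genes known from epithelia, some of them barely read in Cre- SOL muscles. Pkp1, which encodes the desmosomal plaque protein plakophilin, had 3 and 2 counts in Cre- muscles against 421 and 89 in Cre+ muscles. The Cre+ mean was 63.0-fold over the level of 3 counts (adjusted p = 0.0129). Mt4, the metallothionein of stratified squamous epithelium, had 1 and 0 counts in Cre- and 66 and 41 in Cre+ muscles, 13.5-fold over that level (adjusted p = 0.00533). Grhl3, a transcription factor of the epidermal barrier, had 1 count in each Cre- library and 31 and 27 in the Cre+ libraries, 7.37-fold (adjusted p = 0.0381). Each of these was close to unread in Cre- muscles, and Pkp1 in Cre+ replicate 1 was several times its level in replicate 2. Rab17, a small GTPase of polarised epithelial cells, read 0.0586 and 0.121 FPKM in Cre- against 1.84 and 0.655 FPKM in Cre+ muscles (log2 fold change 3.72 ± 0.65, adjusted p = 0.0208). Mall, a MAL-like membrane raft protein, read 1.89 and 2.32 against 13.5 and 6.54 FPKM (2.21 ± 0.36, adjusted p = 0.0142). Tspan8, a tetraspanin of the plasma membrane, read 3.45 and 1.02 against 9.19 and 7.21 FPKM (1.83 ± 0.37, adjusted p = 0.0477). It was not foreign to muscle, since Cre- EDL muscles of 8.5 days held 58.5 to 71.4 FPKM. The wider list of epithelial genes held few calls. Of its 24 members tested, only Pkp1 and Grhl3 passed, 14 had a positive log2 fold change and the median was 0.23. Evpl, a cornified envelope protein, lay at 0.213 and 0.177 FPKM in Cre- and 1.37 and 0.543 FPKM in Cre+ muscles without passing (adjusted p = 0.0890), and so did the simple-epithelium keratin Krt7, at 0.0331 and 0.199 against 1.96 and 0.473 FPKM (adjusted p = 0.349).

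Another group held abundant intracellular serpins and calcium- or lipid-binding proteins. Serpinb6a (chr13:33917918-33936083), an intracellular serine protease inhibitor, was the most abundant of the 50 after the change: 83.5 and 97.6 FPKM in Cre- muscles and 354 and 243 FPKM in Cre+ muscles (log2 fold change 1.68 ± 0.21, adjusted p = 0.00252). Serpinb1a (chr13:32842092-32851185), an inhibitor of neutrophil serine proteases, read 2.95 and 4.35 FPKM in Cre- and 39.9 and 22.3 FPKM in Cre+ muscles (3.05 ± 0.35, adjusted p = 0.00180). In both genes the Cre+ libraries lay above the Cre- libraries, by a gap slightly wider than the spread between the Cre+ replicates. S100a13 (chr3:90514435-90524581), a small calcium-binding protein, read 17.4 and 18.1 against 88.7 and 48.6 FPKM (1.91 ± 0.20, adjusted p = 0.00128). Smaller rises passed in the annexins, which bind phospholipid in the presence of calcium: Anxa4 read 18.5 and 22.3 against 47.7 and 33.7 FPKM (0.96 ± 0.15) and Anxa7 read 22 and 26.7 against 49.4 and 35.2 FPKM (0.76 ± 0.15). Clic1, an intracellular chloride channel protein, read 20.8 and 25.7 against 94.6 and 49.0 FPKM (1.58 ± 0.29, adjusted p = 0.0262). S100a8 and S100a9, which mark neutrophils, went the other way through 1 library: S100a9 read 13 and 0.788 FPKM in Cre- and 1.37 and 0.892 FPKM in Cre+ muscles, and 0 of 6 neutrophil markers tested passed.

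Enzymes formed a further group. Aldh1b1 (chr4:45799022-45804608), a mitochondrial aldehyde dehydrogenase, rose from 2.03 and 3.5 FPKM in Cre- to 47.5 and 21.4 FPKM in Cre+ muscles (log2 fold change 3.6 ± 0.44, adjusted p = 0.00252). Carns1 (chr19:4164324-4175479), the carnosine synthase, read 4.89 and 4.44 against 23.4 and 13.4 FPKM (1.93 ± 0.21, adjusted p = 0.00135). Hddc3 (chr7:80343137-80346097), a hydrolase related to the bacterial enzymes of the alarmone ppGpp, had closely matched replicates, 6.75 and 6.39 FPKM in Cre- against 23.2 and 23.3 FPKM in Cre+ muscles (1.79 ± 0.15, adjusted p = 0.000142). In Hddc3, unlike most of the 50, the Cre+ libraries were level with each other. Alox12, a lipoxygenase that acts on arachidonic acid, read 2.24 and 2.72 against 10.46 and 5.49 FPKM (1.64 ± 0.29). The mitochondrial acyl-CoA thioesterase Acot9 had a log2 fold change of 1.13 ± 0.19, the cytosolic sialidase Neu2 0.89 ± 0.13, the Rab GTPase-activating protein Tbc1d1 0.91 ± 0.15, the phosphatase Phospho1 0.73 ± 0.14 and the mitochondrial ATP-Mg/phosphate carrier Slc25a24 0.71 ± 0.14, all with adjusted p between 0.00856 and 0.0412. Fah, which completes tyrosine breakdown, is a member of the liver list, yet it rose: 3.44 and 3.02 FPKM in Cre- against 20.4 and 7.99 FPKM in Cre+ muscles (2.08 ± 0.41, adjusted p = 0.0423).

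Genes of membrane excitability and of the fibre surface also rose, among them abundant calcium channel subunits and a potassium channel that Cre- muscles barely held. Cacng1, the gamma subunit of the muscle dihydropyridine receptor calcium channel, read 83.4 and 59.8 FPKM in Cre- against 173 and 162 FPKM in Cre+ muscles (log2 fold change 1.18 ± 0.18, adjusted p = 0.0114). Cacnb1, the beta subunit of the same channel, read 48.4 and 50.2 against 91.6 and 73.0 FPKM (0.70 ± 0.12, adjusted p = 0.0205). Nos1, the nitric oxide synthase of the sarcolemma, read 2.05 and 1.45 against 4.99 and 4.25 FPKM (1.36 ± 0.22, adjusted p = 0.0135). Cre- SOL muscles of 5.5 days held 2.47 to 4.12 FPKM of Nos1, and over the 17 alternatives its log2 fold change was 0.31 to 1.69. In Cacng1 and Nos1 the Cre+ replicates differed little beside the gap between genotypes, while in Cacnb1 they differed by nearly as much as the gap. The potassium channel genes Kcnc1 (6.0 and 5.05 against 12.3 and 11.3 FPKM, 1.05 ± 0.16) and Kcnk5 (0.552 and 0.580 against 4.06 and 1.79 FPKM, 2.32 ± 0.38) passed as well. Cspg4 (chr9:56865104-56899870), the NG2 proteoglycan, which is known as a marker of pericytes, read 5.45 and 6.51 against 16.5 and 12.4 FPKM (1.24 ± 0.15, adjusted p = 0.00252). Of 12 endothelial, 14 fibroblast and 12 satellite cell markers tested, 0 passed, and their summed levels overlapped between genotypes for fibroblast and satellite cell markers (for satellite cells 403 to 511 CPM in Cre- and 414 to 458 in Cre+). The endothelial sum was 645 to 804 in Cre- and 808 to 892 in Cre+. Its part in the result for Cspg4 was not tested.

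Smaller sets had other roles. Cfap52, Odf3l1 and Katnal2 are genes of cilia and sperm. Cfap52, a cilia- and flagella-associated protein, read 0.406 and 0.363 FPKM in Cre- against 3.82 and 1.84 FPKM in Cre+ (log2 fold change 2.83 ± 0.38, adjusted p = 0.00481). Odf3l1, related to the outer dense fibres of sperm tails, read 0.876 and 1.10 against 6.50 and 6.0 FPKM (2.63 ± 0.52, adjusted p = 0.0416). Katnal2, a katanin-like microtubule-severing protein, had 2 and 1 counts against 79 and 27, 13.2-fold over the level of 3 counts (adjusted p = 0.0168). Gng13, a G protein gamma subunit of taste and olfactory cells, had the widest gap between Cre+ replicates, 26.5 and 3.94 FPKM against 0.319 and 0.353 FPKM in Cre- muscles (5.42 ± 1.05, adjusted p = 0.0375). Nuclear and RNA-binding proteins among the 50 were Carhsp1 (1.5 ± 0.28), the nuclear membrane protein Nrm (1.06 ± 0.20), the elongation complex component Mllt3 (0.97 ± 0.17) and the zinc-finger protein Zfp385c (2.54 ± 0.41). Pdzd7, a scaffold of hair cell stereocilia, read 0.457 and 0.192 against 1.72 and 1.32 FPKM (2.19 ± 0.44), Necab3, a calcium-binding protein named for neurons, read 0.291 and 0.268 against 1.68 and 0.941 FPKM (2.18 ± 0.33), and the sterol transporter Abcg4 read 0.174 and 0.193 against 0.650 and 0.530 FPKM (1.64 ± 0.22). The remaining protein-coding members were Mpp1 (1.13 ± 0.19), C2cd4c (2.33 ± 0.41), Aknad1 (1.96 ± 0.38), Prr13 (0.87 ± 0.18) and 2310022B05Rik (1.05 ± 0.21).

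Among the 5 non-coding RNAs, AA465934 (chr11:83291699-83294637) and AI450353 (chr11:83293430-83294929) overlap on the same strand and cannot be counted as independent. AA465934 read 0.947 and 0.685 FPKM in Cre- against 49.9 and 26.4 FPKM in Cre+ muscles (log2 fold change 5.49 ± 0.36, adjusted p = 2.77e-05), the smallest adjusted p of all genes tested, and AI450353 read 0.435 and 0.481 against 6.85 and 3.96 FPKM (3.51 ± 0.28). This contrast was not tied to genotype on every day. At 5.5 days, when Pou5f1 in Cre+ SOL muscles was 0.0785 and 0.387 FPKM, AA465934 was high in both genotypes, at 35.9 and 62.8 FPKM in Cre- and 38.8 and 40.8 FPKM in Cre+ SOL muscles. Against the 5.5-day Cre- libraries, a control chosen after seeing the data, its log2 fold change at 8.5 days was -0.56 and that of AI450353 was -0.60. Srrm4os, antisense to the splicing regulator Srrm4, read 0.156 and 0.0789 against 2.66 and 0.642 FPKM (3.77 ± 0.76, adjusted p = 0.0484), while Srrm4 itself had 31 and 74 counts in Cre- and 66 and 37 in Cre+ muscles. The remaining non-coding members were 2310039L15Rik (0.245 and 0.188 against 1.47 and 1.98 FPKM, 2.94 ± 0.50) and 1810034E14Rik (0.696 and 0.695 against 2.70 and 1.71 FPKM, 1.62 ± 0.29). The libraries were stranded, but whether counting used the strand is not given in the sources used here. In the GENCODE annotation 22 of the 50 overlapped a gene on the opposite strand, and 13 overlapped a tested gene on either strand. Of those 16 partner genes 0 passed edgeR's test, where 0.332% of all genes tested passed as higher and 0.299% as lower. The largest rise among them was in Ngef, opposite to Neu2, with 31 and 26 counts in Cre- against 320 and 111 in Cre+ (log2 fold change 2.50, adjusted p = 0.126). The largest fall was in Sox2ot (-1.38). Whether partners shared reads was not tested.

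The promoters of the 50 genes, which share a direction by choice, were read for the motifs of the factors. RefSeq windows on GRCm38.p6 (the mm10 assembly), from 250 bases before to 50 bases after each start, were found for 41 of the 50 genes, 56 windows in all. Motifs were spelled out exactly and searched on both strands: CACGTG, the E-box of Myc, ATGCAAAT, the octamer of Oct4, CATTGTT for Sox2 and GGGTGTGG for Klf4. The E-box lay in 7.14% of the 56 windows against 7.15% of all 32851 windows, the octamer in 1.79% against 1.74%, the Sox motif in 7.14% against 3.78% and the Klf motif in 12.5% against 3.56%. These are 4, 1, 4 and 7 windows, with several windows of a gene sharing sequence. By gene the shares were 9.76%, 2.44%, 7.32% and 14.6% of the 41, against 8.09%, 1.97%, 4.33% and 4.09% of all genes with a window. The genes with a Sox match include Pou5f1, whose counts include cassette transcripts. A match is a string of letters rather than a measured binding site. Of these matches 7 are shown, at least 1 for each motif, 5′ to 3′ on the gene's strand, with the motif or its reverse complement in capitals.
AA465934 (E-box, chr11:83291604-83291689, plus strand): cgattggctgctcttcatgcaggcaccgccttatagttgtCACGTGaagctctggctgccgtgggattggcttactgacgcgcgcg
Anxa7 (E-box, chr14:20480009-20480094, minus strand): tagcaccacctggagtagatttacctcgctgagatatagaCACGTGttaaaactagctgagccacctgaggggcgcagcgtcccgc
Phospho1 (E-box, chr11:95824250-95824330, plus strand): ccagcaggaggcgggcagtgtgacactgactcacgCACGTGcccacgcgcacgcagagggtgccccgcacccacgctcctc
Tspan8 (octamer, chr10:115817049-115817136, plus strand): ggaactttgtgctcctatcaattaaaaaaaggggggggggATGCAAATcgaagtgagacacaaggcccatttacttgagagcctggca
Acot9 (Sox, chrX:155262238-155262324, plus strand): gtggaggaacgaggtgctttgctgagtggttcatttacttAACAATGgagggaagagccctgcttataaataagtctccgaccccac
Slc25a24 (Klf, chr3:109122994-109123081, plus strand): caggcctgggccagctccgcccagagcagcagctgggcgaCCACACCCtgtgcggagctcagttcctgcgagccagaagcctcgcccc
Necab3 (Klf, chr2:154559012-154559099, minus strand): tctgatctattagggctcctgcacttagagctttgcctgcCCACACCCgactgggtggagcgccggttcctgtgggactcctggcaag

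The fast EDL muscle of the same day, with its own Cre+ and Cre- libraries, showed most of the same genes at larger changes. Of the 50, 48 were called higher in EDL muscles at 8.5 days, where 7.63% of all genes tested were, and 0 were called lower. The exceptions were Tspan8 and Pdzd7, at adjusted p of 0.160 and 0.0595 there. All 50 had a positive log2 fold change in EDL muscles and their median was 2.81, against 1.87 in SOL muscles, with 38 of the 50 larger in EDL. The overlap was one-sided, since these 48 were 96.0% of the SOL genes but 4.10% of the genes called higher in EDL. Read directly, the change differed between muscles for 91 genes (0.592%), 82 of them lower in SOL minus EDL, and 1729 genes differed at an unadjusted p under 0.05. Muscles with the same replicate number deviated together and may come from 1 mouse. A fit with that replicate block called 175 genes, and without Cre+ replicate 2 of SOL 2 genes were left.

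Of the 50, 9 were among the 91, all with the smaller rise in SOL: C2cd4c, Cfap52, Abcg4, Mpp1, Anxa4, Anxa7, Prr13, Neu2 and 2310022B05Rik. Cfap52 shows the size of the gap, at 1.84 and 3.82 FPKM as the lowest and highest Cre+ SOL values and 26.9 and 40.6 FPKM in Cre+ EDL muscles, with Cre- values under 1 FPKM in both (difference of log2 fold changes -2.98, adjusted p = 0.0306). C2cd4c differed by -4.02 (adjusted p = 0.0265) and Abcg4 by -2.99 (adjusted p = 0.00321). Of genes that did not pass in SOL, Shc2, an adaptor of receptor tyrosine kinases, and Gdf11, a TGF-beta family ligand of the satellite cell niche list, rose in EDL by 4.19 and 4.54 on the log2 scale against 0.48 and 1.39 in SOL (differences -3.71 and -3.15, adjusted p = 0.0164 and 0.0154). The 4 largest differences the other way were falls in EDL that were smaller in SOL. They were Dupd1, a muscle dual-specificity phosphatase (difference 3.37, adjusted p = 0.0497), Rhbdl1, a rhomboid-like membrane protein (2.53, adjusted p = 0.00122), Gpt2, the mitochondrial alanine aminotransferase (1.75, adjusted p = 0.0275), and the non-coding Gm15179, which overlaps Des on the opposite strand (1.52, adjusted p = 0.0490). Hddc3 had nearly equal estimates, 1.79 in SOL and 1.78 in EDL (difference 0.01 ± 0.21, adjusted p = 0.994), with Cre+ levels of 23.2 to 23.3 FPKM in SOL and 25.5 FPKM in both EDL libraries.

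**Figure D4:**
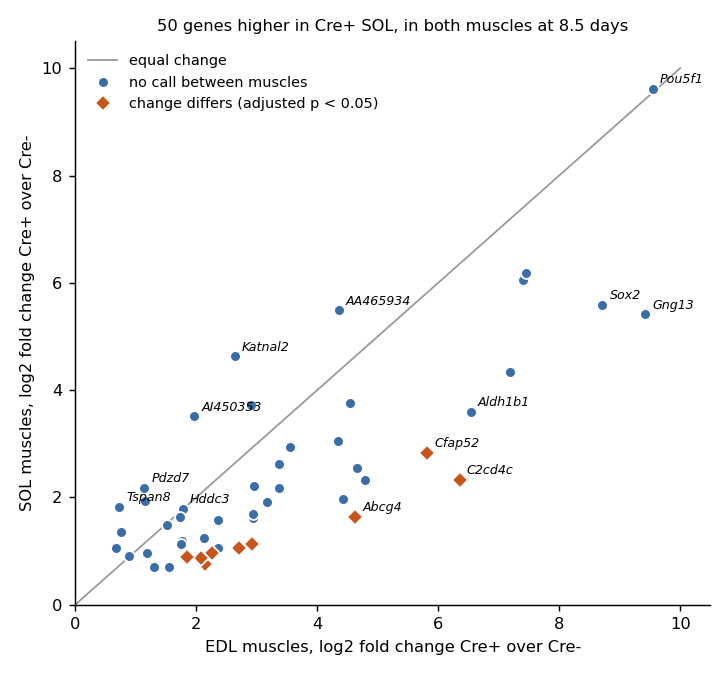
Log2 fold change of Cre+ over Cre- at 8.5 days for the 50 genes upregulated in SOL muscles, with EDL on the x axis and SOL on the y axis, 1 point per gene, and a grey line of equal change. The orange diamonds are the 9 genes whose change differed between muscles, all below the line. The place of Pou5f1 has no meaning beyond a large rise in both, since its Cre- muscles held 0 to 5 counts.

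Several of the 50 genes were fast-muscle genes to begin with. In Cre- muscles of 2.5 days, which are not in the contrast that chose the genes but entered the same fit, 14 of the 50 were called higher in EDL than in SOL, against 8.14% of all genes, and 8 were called lower, against 7.86%. The 14 included Nos1, Kcnc1, Cacng1, Carns1, Tbc1d1, Tspan8, Pdzd7 and Katnal2. Carns1 illustrates the levels: Cre- SOL muscles of all days held 3.66 to 4.89 FPKM, Cre+ SOL muscles at 8.5 days 13.4 to 23.4 FPKM and Cre- EDL muscles of that day 18.6 to 19.9 FPKM. Tspan8 stayed far apart, at 7.21 to 9.19 FPKM in Cre+ SOL against 58.5 to 71.4 FPKM in Cre- EDL muscles. The 8 that were higher in Cre- SOL were Aldh1b1, Carhsp1, Anxa7, Anxa4, Odf3l1, Alox12, Serpinb1a and Cspg4. Of the fast-fibre list itself 1 (Nos1) of 20 members was called, with a median log2 fold change of -0.06. That median ran from -0.26 without Cre+ replicate 2 to 0.39 without Cre- replicate 1, where 19 of 20 were positive.

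SOL muscles at 2.5 days showed rises in the same genes. All 50 genes had a positive log2 fold change there, with a median of 1.69, and 30 were called higher (0.345% of all genes tested were), as were 46 in EDL at 2.5 days (13.8% of all). The 30 were 60.0% of the SOL genes of 8.5 days and 57.7% of the genes outside the liver list called higher in SOL at 2.5 days. The change at 8.5 days differed from that at 2.5 days for 0 genes by edgeR, with a smallest adjusted p of 0.116 and 403 genes at an unadjusted p under 0.05, and for 9 genes by DESeq2. The mice of 2.5 days had high Ddx3y and those of 8.5 days high Xist, so day and sex cannot be told apart in this comparison. Serpinb1a read 46.5 to 78.1 FPKM at 2.5 days and 22.3 to 39.9 FPKM at 8.5 days in Cre+ muscles, Hddc3 22 to 24 and 23.2 to 23.3 FPKM, and S100a13 76.7 to 78.0 and 48.6 to 88.7 FPKM. Set against all 6 Cre- SOL libraries of the 3 days, the Cre+ libraries of 8.5 days were higher for 47 of the 50 (12.8% of all genes tested). The exceptions were AA465934, AI450353 and Tbc1d1. All 50 already lay above the 8.5-day Cre- libraries, which are among the 6, so this count cannot be weighed against the share of all genes. At 5.5 days both Cre+ SOL libraries lay above both Cre- libraries for 25 of the 50, as did 26.5% of all genes tested.

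Lists of pathway genes outside the liver list held few calls. Of their 649 genes tested 4 were called higher (0.616%, near the 0.332% of all genes), Pkp1, Grhl3, Nos1 and Cacng1, and 0 lower, and 7 passed with the replicate number within a day as a replicate block. The respiratory chain and ATP synthase genes lay slightly but evenly lower. Of 67 members 64 had a negative log2 fold change, with a median of -0.20, and 54 were lower in both Cre+ libraries than in both Cre- libraries, against the 19.2% of all genes, yet 0 passed edgeR (7 at an unadjusted p under 0.05, lowest adjusted p 0.472). Their summed level was 35887 to 35924 CPM in Cre- and 31296 to 32422 in Cre+ muscles. Atp5b, the beta subunit of ATP synthase, read 2757 and 2753 FPKM in Cre- against 2381 and 2478 FPKM in Cre+ muscles, and Cox6a2, the muscle subunit of cytochrome c oxidase, read 1925 and 2168 against 1603 and 1848 FPKM. In EDL muscles at 8.5 days 59 of the 67 were called lower, where 6.5% of all genes tested were, with a median of -0.74, and the median in SOL at 2.5 days was -0.48. The TCA cycle and fatty acid oxidation genes were alike, 45 of 47 negative with a median of -0.18 and 0 called in SOL, and 25 called lower in EDL.

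Slow-fibre genes were also without a call. The median over 20 members was -0.17, 0 were called, and the summed level was 79300 to 83744 CPM in Cre- and 72523 to 73060 in Cre+ muscles. Myl2 and Myl3, slow myosin light chains, read 9464 and 13960 against 10175 and 9704 FPKM and 8768 and 7699 against 6544 and 7131 FPKM. Glycolysis genes had a median of 0.01 over 33 members and mature muscle genes -0.06 over 37, where Cacng1 was the only call. Ribosome biogenesis genes, many of them Myc targets, were positive in 45 of 53 with a median of 0.13 and 0 called, and cell cycle genes were positive in 29 of 34 with a median of 0.33 and 0 called. The lowest adjusted p there was that of cyclin D (Ccnd1), at 5.19 and 5.16 FPKM in Cre- against 10.2 and 7.72 FPKM in Cre+ muscles (adjusted p = 0.645). Of 14 pluripotency genes tested besides the cassette, 7 were positive, 0 passed and the median was 0.00.

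**Figure D5:**
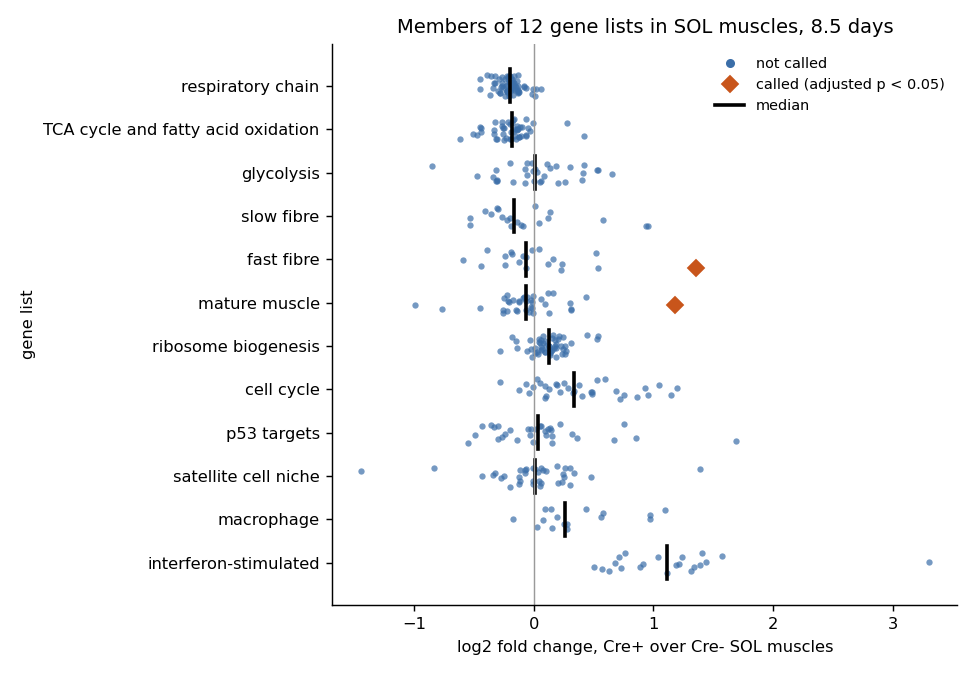
Log2 fold change of Cre+ over Cre- in SOL muscles at 8.5 days for each member of 12 gene lists, 1 point per gene, with black bars for list medians and orange diamonds for the members that passed the test (Nos1 and Cacng1). Respiratory chain genes cluster just below 0, and interferon-stimulated genes are spread above 0 with a median of 1.12.

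Interferon-stimulated genes stood higher through 1 library. All 21 had a positive log2 fold change, with a median of 1.12, but 0 passed edgeR (10 at an unadjusted p under 0.05, lowest adjusted p 0.101). Igtp, an interferon-induced GTPase, read 9.57 and 3.99 FPKM in Cre- muscles and 31.3 and 6.02 FPKM in Cre+ muscles, and Ifit3 read 3.85 and 2.61 against 15.5 and 4.44 FPKM. Cre+ replicate 1 was high and replicate 2 lay near the Cre- range, with summed levels of 191 to 584 CPM in Cre+ and 150 to 220 in Cre- muscles. Without Cre+ replicate 1 the median fell to 0.13, with 14 of 21 positive. Macrophage markers were positive in 15 of 16 with a median of 0.26, 0 passed, and their sum was 201 to 270 CPM in Cre- and 285 to 305 in Cre+ muscles, while without Cre- replicate 1 the median was 0.04 with 9 of 16 positive. Their part in the interferon values was not tested. Of the other cell types, Schwann cell markers were negative in 11 of 12 (median -0.28) and adipocyte markers in 10 of 11 (median -0.63), but without Cre- replicate 1 the medians were 0.42 and 0.22, with 12 of 12 and 8 of 11 positive. Tendon (median 0.04 over 10) and erythroid markers (median -0.12 over 7) were mixed, with 0 called in each. Denervation, atrophy, stress response and cytoskeleton genes held 0 calls among 29, 22, 31 and 46 members, with medians of 0.04, -0.08, -0.05 and 0.06.

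The study singled out genes for the satellite cell niche from its EDL muscles, not from SOL. These did not pass edgeR's test in SOL muscles at 8.5 days. Wnt4, a secreted signal of the fibre to satellite cells, read 3.32 and 1.97 FPKM in Cre- and 1.38 and 1.68 FPKM in Cre+ muscles (log2 fold change -0.83 ± 0.27, adjusted p = 0.403). It fell in SOL at 2.5 days (-1.63, adjusted p = 0.0452) and in EDL at 8.5 days (-2.63, adjusted p = 6.81e-05), and the difference between muscles at 8.5 days was 1.79 (adjusted p = 0.0627). Cdkn1a, which encodes the cell cycle inhibitor p21, read 47.1 and 42.9 against 95.6 and 72.0 FPKM (0.86 ± 0.20, adjusted p = 0.113), with 2.09 in EDL and a difference of -1.24 (adjusted p = 0.0833). Cdkn1a gained a call in 4 of 17 alternatives, DESeq2 on the 16 and on the 4 libraries among them (adjusted p = 0.000184 on the 4), with adjusted p up to 0.882 in the others. The genotypes did not overlap in SOL for Wnt4 or Cdkn1a. Of all genes tested, 19.2% lay lower and 19.8% higher in Cre+ without overlap. For Sdc4 (24.4 and 50.3 against 38.2 and 22.7 FPKM) the genotypes overlapped. Itga7, the laminin-binding integrin subunit, read 62.4 and 51.3 against 78.3 and 66.6 FPKM (0.31 ± 0.21, adjusted p = 0.924), and Wnt2b was near 0.1 FPKM throughout, at 14 and 14 against 27 and 24 counts. Of 37 niche genes tested 0 passed, with a median of 0.01, and 0 of 32 p53 targets passed, with a median of 0.04.

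Lower genes outside the liver list are given as values that did not pass. Rhbdl1 came closest, at 12 and 11 FPKM in Cre- against 6.58 and 7.31 FPKM in Cre+ muscles (log2 fold change -0.77 ± 0.16, adjusted p = 0.0574). N4bp2l1 read 1.94 and 2.08 against 1.00 and 1.01 FPKM (-1.03 ± 0.23, adjusted p = 0.0951) and Cecr5 36.2 and 35.2 against 27.1 and 20.9 FPKM (-0.61 ± 0.14, adjusted p = 0.0921). Myh3, the embryonic myosin heavy chain, read 17.1 and 32.3 against 10.4 and 13.6 FPKM (-1.06 ± 0.27, adjusted p = 0.181). The rule that chose these genes required that the genotypes not overlap, and 19.2% of all genes tested lay lower in this way. The others chosen by the same rule were Kcne4 (-0.81), Mfsd7b (-0.68) and Irf2bp2 (-0.54), with adjusted p between 0.181 and 0.219.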

How the data were processed

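The deposited table holds raw counts of reads aligned uniquely to RefSeq exons for 24537 genes in 24 stranded, single-end, poly(A) mRNA-seq libraries, not normalized. Per the labels, the authors used FastQC 0.11.2, aligned reads to mm10 with STAR 2.5.3a and counted them with HOMER, and exon lengths came with the counts. They describe excluding from their own downstream analysis the samples without OSKM overexpression.

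Counts of the 16 libraries of 2.5 and 8.5 days, in 8 groups of muscle, genotype and day, were fitted together with edgeR 4.0.16 (R 4.3.3, TMM, filterByExpr with a minimum count of 10), and contrasts were tested with its quasi-likelihood test, 2-sided, with Benjamini-Hochberg adjustment over 15372 genes. The 4 SOL libraries of 8.5 days were the subject, and 2 against 2 libraries cannot give an exact permutation p below 0.333. FPKM used the total count and exon length. DESeq2 1.42.0, other normalizations, filters, library sets, thresholds, a replicate block and the omission of each library were alternatives. Scripts were tested on simulated data. SOL and EDL libraries with the same number deviated together (r of 0.206 to 0.449 over 4 groups). SOL Cre+ and Cre- libraries of 8.5 days did not (r = -0.0875). Whether muscles with the same number come from 1 mouse is not given in the labels.

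The muscle and time point described, and the gene lists, liver list included, were chosen with earlier results of these data known. Named genes were the reprogramming factors, the genes the study names, the 20 largest rises with at least 1 FPKM, the called falls (and the 8 with the lowest p that did not pass, of which 1 is not reported here), called list members, the 2 most abundant members of each list (printed only where a list is described by examples), the most abundant liver transcripts and the 4 genes each way that differed most between muscles. The falls that did not pass were chosen among genes whose genotypes did not overlap. All other upregulated genes are named to account for the set. S100a8, Evpl, Krt7, Ccnd1, Ifit3, Srrm4, Myh7, Myh4, Xist and Ddx3y were named after their values were seen.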

Additional observations from a re-analysis of the deposited data

Results flagged for a closer look

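Changes that differed between SOL and EDL muscles at 8.5 days, by a test of the difference itself, drew attention in 9 named genes. On the log2 scale the change in SOL minus that in EDL was -2.98 for Cfap52, -4.02 for C2cd4c, -3.71 for Shc2, -3.15 for Gdf11 and -2.99 for Abcg4, and 2.53 for Rhbdl1, 1.52 for Gm15179, 1.75 for Gpt2 and 3.37 for Dupd1. Libraries of 5.5 days took no part in the main comparison. There 3 of the 4 factors lay higher in both Cre+ SOL libraries than in both Cre- libraries, as did 26.5% of all genes tested. The Cre+ mean was 0.233 FPKM for Pou5f1 (4 and 22 counts against 1 and 0) and 1.91 FPKM for Myc. For Sox2 it was 0.127 FPKM (4 and 22 against 5 and 0 counts, separated only after scaling to depth). Klf4 lay the other way, at 6.43 and 12.9 FPKM in Cre+ against 14.7 and 14.4 FPKM in Cre- muscles.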

How the results depend on the processing

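The main counts were 50 upregulated and 3 lower genes outside the liver list, 43 lower in it, 2 factors and 4 called members of other lists. DESeq2 gave 107 upregulated, 13 lower and 13 list members on the 16 libraries and 129, 35 and 21 on the 4 libraries, with 3 factors in both (Myc added). Without a count filter 5 were lower and 11 list members called. At least 10 counts in every library, which removes genes near 0 in Cre- muscles, left 27 upregulated, 0 lower, 1 in the liver list, 0 factors and 2 list members. EdgeR on the 4 libraries gave 0 for all, and on the 8 SOL libraries 14 upregulated, 0 lower, 4 in the liver list and 0 list members. All 24 libraries gave 1 factor (Sox2 was not called), liver genes taken out 0 lower in that list by construction, Cre- SOL libraries of both days 86, 0 lower liver genes and 9 list members, and the 5.5-day Cre- libraries, chosen after seeing the data, 1626 upregulated, 955 lower, 5 in the liver list and 184 list members. Leaving out 1 library gave 11 to 47 upregulated, 0 to 25 lower, 3 to 79 liver-list genes, 1 to 2 factors and 0 to 4 list members. The fit with a replicate block matched Cre+ and Cre- libraries of a day by number alone, which is no known pairing. It gave 57 upregulated (43 of the 50), 4 lower, 38 liver-list genes, 2 factors and 7 list members.

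The 91 differences from EDL became 342 with DESeq2 and 2 to 59 without 1 library. They became 175 with a replicate block that matched SOL and EDL libraries by number. Such muscles may come from 1 mouse, but the labels do not say so. The 0 differences from 2.5 days became 9 with DESeq2 and 0 to 11 without 1 library. Against 5.5-day controls the log2 fold change changed sign for AA465934 (-0.56), AI450353 (-0.60), Wnt4 (0.22), Sdc4 (0.11), Fabp1 (0.32), Myh3 (0.80), Apoc1 (0.079) and Klf4 (0.0900). Klf4 was 0.10 against the Cre- libraries of both days. Without 1 library Klf4 ranged from -0.48 to 0.36 and Sdc4 from -0.71 to 0.23. The causes were not tested. Depth left genes under 3 counts unread.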

Other observations

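In the SOL libraries of 5.5 days Serpinb1a read 3.17 to 3.54 FPKM in Cre+ and 1.77 to 2.13 FPKM in Cre- muscles, Hddc3 6.99 to 7.06 against 6.29 to 6.54 FPKM and S100a13 17.3 to 25.4 against 16.1 to 16.2 FPKM, far under the Cre+ values of 8.5 days. Interferon-stimulated genes reached their highest sum in a Cre- SOL library of that day, 2130 CPM against 170 in the other.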
